A study of Mus musculus with 2 samples.

Results

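The genes described here encode the nuclear subunits of respiratory complexes II, III, IV and V of the mitochondrion, together with cytochrome c. They were chosen by name alone, as the genes whose symbol on the array was Sdha to Sdhd, Cyc1 or Cycs or began with Uqcr, Cox4 to Cox8 or Atp5. The rule found 49 genes of 24171 on the array, measured by 73 sequences. Of these, 46 encode a subunit, cytochrome c or an isoform of a subunit. The other 3 carry such a name without being subunits: Cox4nb (now Emc8), a neighbour of Cox4i1 that belongs to a complex of the endoplasmic reticulum, Atp5s (now Dmac2l, coupling factor B) and Atp5sl (now Dmac2), a factor of complex I assembly.

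The respiratory chain passes electrons from nutrients to oxygen and uses the energy to pump protons across the inner mitochondrial membrane. Complex II (succinate dehydrogenase) feeds electrons into the ubiquinone pool, complex III moves them from ubiquinone to cytochrome c, complex IV (cytochrome c oxidase) hands them to oxygen, and complex V (ATP synthase) makes ATP as protons flow back. Long-term haematopoietic stem cells, the most durable stem cells of blood, are known for relying little on this chain while quiescent and for raising its use when they differentiate.

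The study set LT-HSC sorted by flow cytometry from femoral marrow of WASH knockout mice against LT-HSC of wild type control mice, all of the C57/BL6 strain. WASH activates the Arp2/3 complex on endosomes. The labels give neither how WASH was deleted nor the age, sex or number of the mice, and each genotype had 1 NimbleGen array, so 2 arrays were compared and no spread between animals, error or p-value can be given. Every difference below is between these 2 samples, and in sorted but bulk RNA, fewer cells of a type and less RNA per cell cannot be told apart.

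Values are RMA intensities on a linear scale, in arbitrary units. RMA corrects background, brings arrays to a common distribution and summarises the probes of a sequence. Differences are log2 values, knockout minus control, of the sequence of a gene with the highest mean. The median intensity over 44170 sequences was 137 on each array. As a measure of background, 5000 random-sequence probes had a level of 75.7 on the knockout array and 71.3 on the control array. The detected range took in 16245 genes, those with a value over the array median on at least 1 of the arrays. Washc1, which the knockout targets, was at 107 in the knockout and 119 in the control, dim on both arrays, and where its probes sit relative to the deletion is unknown, so it does not check the genotype labels. Of 6 surface markers used to sort such stem cells, by presence or by absence, 5 were in the detected range. Cd34 was at 1105 in the knockout and 746 in the control (0.57) and Kit at 489 and 398 (0.30). Ly6a was at 596 in the knockout and 835 in the control (-0.49). Slamf1, at 123 and 147 (-0.26), and Cd48 were in that range only through the control. Cd48 was below background in the knockout and at least 2.01-fold lower. The identity of the sorted cells was not tested. Procr was below background on both arrays, and Kit, Slamf1 and Procr are named here after their values were seen.

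Respiratory genes were more often lower than higher in the knockout. Of the 49 genes, 42 were in the detected range, 29 of them lower in the knockout and 13 higher, so that 69.0% were lower beside 48.3% of all genes in that range. Their median difference was -0.22, beside 0.03 over all genes. At a size of at least 2-fold, 6 were lower (14.3%, beside 7.29% of all genes) and 1 was higher (2.38%, beside 6.41%). Among the 34 of them above the 75th percentile of intensity, 24 were lower (beside 48.8% of all genes that bright), 5 at least 2-fold (beside 7.13%), and 1 was at least 2-fold higher (beside 5.68%). Of the 42 genes, 40 lay above the array median on both arrays and 2 (Sdhb and Cox7a1) on the control array only. Without the filter 33 of the 49 lay lower and 16 higher (median -0.18). Over all 24171 genes without the filter, 11683 lay lower and 12472 higher (median 0.023). Every unfiltered count of a list below stands beside these. These shares describe 1 pair of samples and carry no test.

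**Figure D1:**
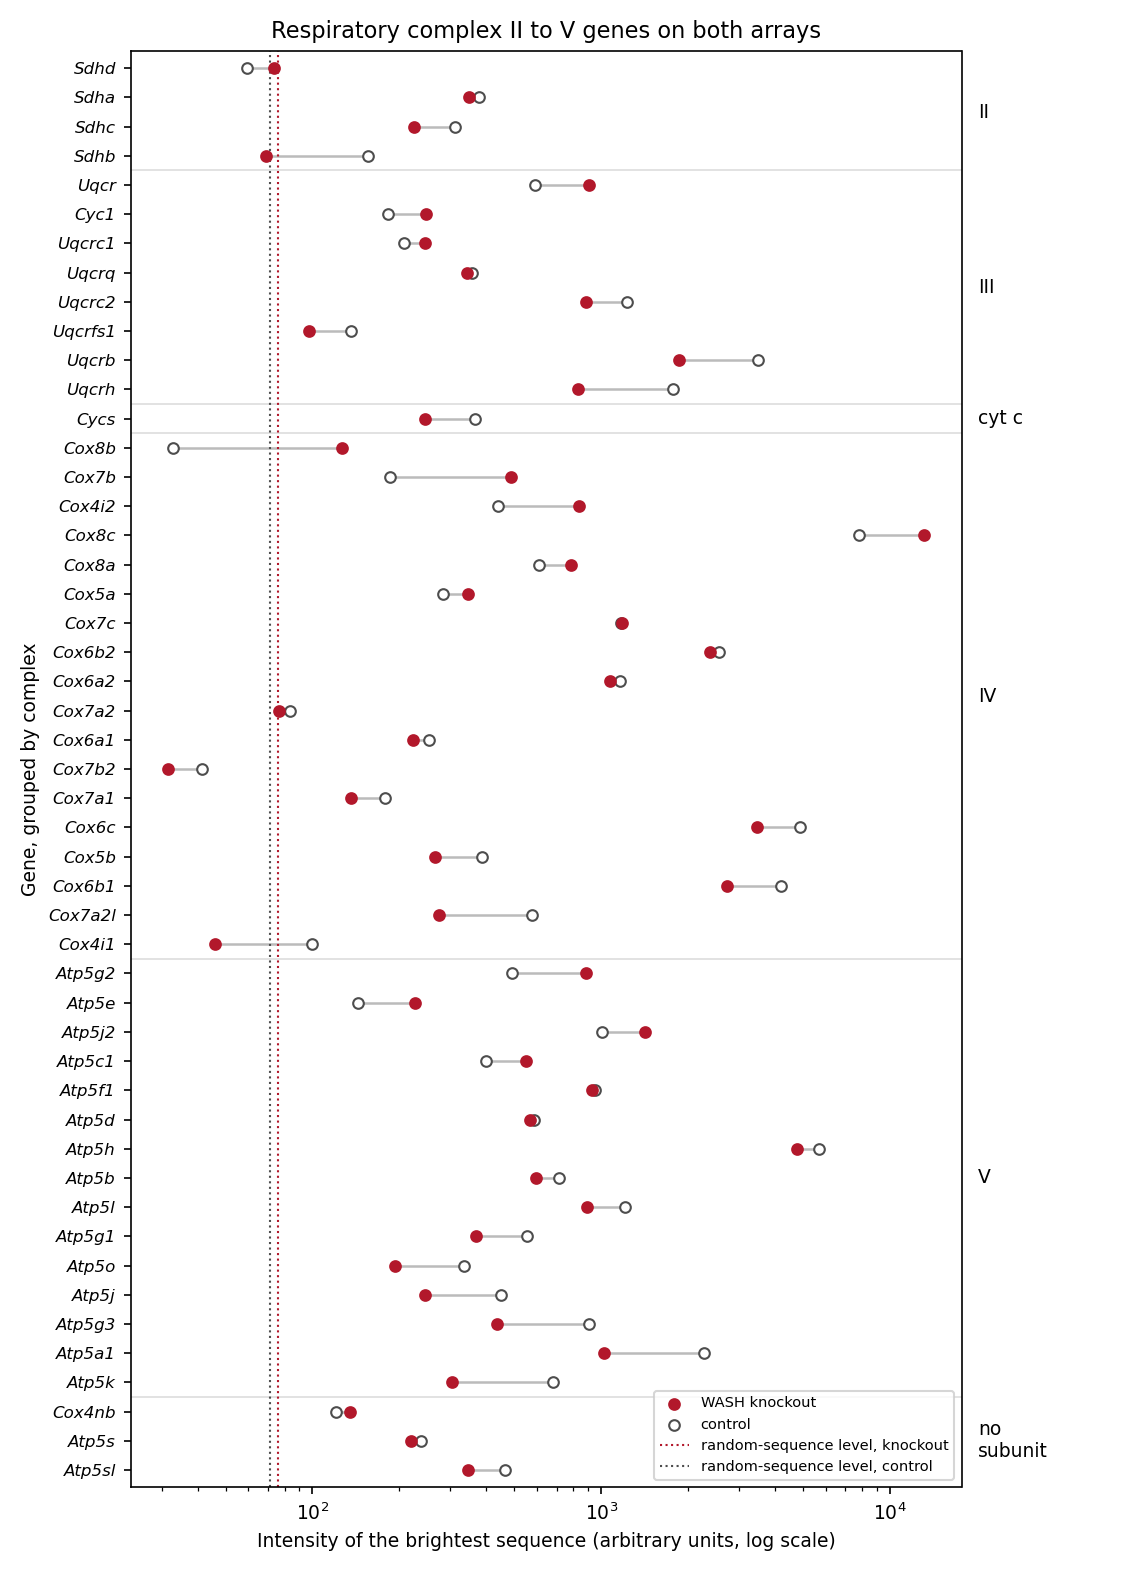
Intensity of the brightest sequence of each of the 49 genes (x axis, arbitrary units, log scale) on the WASH knockout array (filled) and the control array (open), grouped by complex and ordered within a complex by the difference. Dotted lines mark the random-sequence level of each array, 75.7 for the knockout and 71.3 for the control; most filled points of complex V lie left of the open ones.

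The 7 genes past 2-fold came from every complex. On the low side were Sdhb of complex II, Uqcrh of complex III, Cox7a2l of complex IV and Atp5a1, Atp5g3 and Atp5k of complex V. Sdhb was below background in the knockout and has only a bound, while the other 5 differed by -1.16 to -1.06. The high side held only Cox7b of complex IV (1.40). Just inside that size on the low side was Atp5g3 at -1.06 and just outside it Uqcrb at -0.91. On the high side Cox4i2 lay just outside at 0.93.

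Complex II has a catalytic pair, the flavoprotein Sdha and the iron-sulphur protein Sdhb, and the membrane anchors Sdhc and Sdhd. All 3 genes in the detected range were lower in the knockout (beside 48.3% of all genes), with a median of -0.46. Sdhb was in that range only through the control, and over all 4 genes without the filter 3 were lower and 1 (Sdhd, at background) higher, with a median of -0.29. Sdha, which oxidises succinate, was at 348 in the knockout and 377 in the control (-0.11). Sdhb (chromosome 4, 140517185 to 140535107, MM9) was at 69.3 in the knockout, below the random-sequence level, and at 156 in the control, which makes it at least 2.06-fold lower. Its dimmer sequence, near the random-sequence level on both arrays, differed by -0.49. Sdhc was at 226 in the knockout and 311 in the control (-0.46), but its dimmer sequence was higher in the knockout (159 against 125, 0.34), so the direction of Sdhc depended on the sequence. Sdhd was at background, 73.4 in the knockout and 59.2 in the control. The catalytic subunit that stood well clear of background on both arrays thus differed little.

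Complex III was divided, with 4 of 7 genes in the detected range lower (57.1%, beside 48.3% of all genes) and a median of -0.05. The small subunits around the core showed the widest span. Uqcrh, the hinge protein that contacts cytochrome c1 (chromosome 4, 115739570 to 115747619, MM9), was at 834 in the knockout and 1779 in the control (-1.09), while its dimmer sequence was at 203 in the knockout and 231 in the control (-0.18). Uqcrb, which helps to form the ubiquinone site, was at 1859 in the knockout and 3498 in the control (-0.91). Uqcr, now named Uqcr11, lay the other way, at 905 in the knockout and 588 in the control (0.62), and both of its sequences were higher. Uqcrq was at 344 in the knockout and 356 in the control (-0.05), but its other sequence at 351 in the knockout and 279 in the control (0.33). The direction of Uqcrq thus depended on the sequence. The core proteins, which hold the complex together, were also split: Uqcrc2 was at 887 in the knockout and 1227 in the control (-0.47), Uqcrc1 at 246 in the knockout and 208 in the control (0.24).

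Of the subunits of complex III that carry electrons, Cyc1, cytochrome c1, was at 248 in the knockout and 183 in the control (0.44), and its sequences agreed closely, at 0.44 each. Uqcrfs1, the Rieske iron-sulphur protein, was at 97.1 in the knockout and 136 in the control and did not reach the detected range. Cycs, the soluble cytochrome c that carries electrons to complex IV and triggers apoptosis when it leaves the mitochondrion, was at 246 in the knockout and 365 in the control (-0.57). Its other sequence differed by -0.44. Cytochrome c1 and cytochrome c, neighbours in the chain, thus lay in opposite directions, each with both of its sequences.

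Complex IV lay close to all genes. In the detected range 8 of 14 genes were lower (57.1%, beside 48.3% of all genes) and 6 higher, with a median of -0.11. Cox7b, a small subunit of the membrane arm (chromosome X, 103211038 to 103217789, MM9), had the largest difference of any detected member, with 489 in the knockout and 185 in the control (1.40). Its other sequence was higher by less, at 232 in the knockout and 170 in the control (0.45). Cox7a2l, a relative of the Cox7a subunits that links complexes III and IV into supercomplexes and is known in C57BL/6 mice as a shortened form, was at 273 in the knockout and 574 in the control (-1.07; chromosome 17, 83901267 to 83913637, MM9). A single sequence measured it, which leaves no second reading of the gene.

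Among the general subunits, those present in most tissues, 4 of the 8 in the detected range were lower. Cox6b1, on the side of the enzyme where cytochrome c binds, was at 2724 in the knockout and 4193 in the control (-0.62), Cox6c at 3459 in the knockout and 4890.4 in the control (-0.50) and Cox5b at 266 in the knockout and 387 in the control (-0.54). Cox5b depended on the sequence, since the dimmer one, below the detected range, differed by 0.28. Cox6a1 was at 223 in the knockout and 253 in the control (-0.18), and Cox7c at 1179 in the knockout and 1171 in the control (0.01, other sequence 0.36). Cox8a was at 788 in the knockout and 607 in the control (0.38) and Cox5a at 346 in the knockout and 284 in the control (0.29). Cox4i1 and Cox7a2, both widely expressed, were not in the detected range: Cox4i1, at 46.1 in the knockout and 99.99 in the control, was at least 1.32-fold lower against the random-sequence level, and Cox7a2 was at 76.7 in the knockout and 83.6 in the control.

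Several complex IV subunits have isoforms known from particular tissues, and some of these gave clear signals here. Cox4i2, the isoform known from lung and tuned to low oxygen, was at 836 in the knockout and 438 in the control (0.93). Cox8c, known from testis, was at 13088 in the knockout and 7835 in the control (0.74), 173 and 109.9 times the random-sequence levels of those arrays. Cox6b2, also known from testis, was at 2383 in the knockout and 2565 in the control (-0.11), and Cox6a2, of heart and muscle, at 1069 in the knockout and 1160.2 in the control (-0.12). The heart and muscle isoform Cox7a1 was near the lower end of the detected range, at 136 in the knockout and 178 in the control (-0.39). Cox7b2 was below background, at 31.7 in the knockout and 41.4 in the control. Cox8b, at 127 in the knockout, was below that level in the control, so its brightest sequence was at least 1.78-fold higher, while the other was at 34.7 in the knockout and 39.3 in the control, both below it. Each of these genes except Cox8b had 1 sequence, and whether its probes also bind other transcripts was not tested.

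Complex V contributed the most genes to the detected range, which held all 15 of those measured. Of these 11 were lower (73.3%, beside 48.3% of all genes), with a median of -0.26. The parts of the enzyme are given in turn. The F1 head, where ATP is made, consists of the alpha subunit Atp5a1, at 1021 in the knockout and 2273 in the control (-1.16), and the beta subunit Atp5b, at 592 in the knockout and 711 in the control (-0.26). The turning central stalk was higher or level: the gamma subunit Atp5c1 was at 548 in the knockout and 400 in the control (0.45, other sequence 0.34) and the epsilon subunit Atp5e at 226 in the knockout and 143 in the control (0.66). The delta subunit Atp5d was at 567 in the knockout and 584 in the control (-0.04), with a second sequence at 0.03. Both genes of the head were thus lower (beside 48.3% of all genes), and 2 of the 3 of the central stalk higher (beside 51.7%). Such counts are small, and a difference between parts was not tested.

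The peripheral stalk, which keeps the head from turning with the rotor, lay below 0 in all 4 genes (beside 48.3% of all genes). For Atp5f1 this was barely so (-0.03, and 0.0013 with quantile normalization). Atp5o, the oligomycin sensitivity protein at its tip, was at 192 in the knockout and 336 in the control (-0.80). Atp5j, coupling factor 6, was at 246 in the knockout and 451 in the control (-0.88). Both have 1 sequence. Atp5h was at 4754 in the knockout and 5663 in the control (-0.25, other sequence -0.45), and Atp5f1 (now Atp5pb) was level at 929 in the knockout and 951 in the control (-0.03). The next brightest of its 4 sequences differed by -0.02, and those below the detected range by 0.14 and -0.42. The 4 genes thus ranged from no visible difference to a size short of 2-fold.

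In the membrane part, the small subunit Atp5k, which holds ATP synthase dimers together (chromosome 5, 108862271 to 108863397, MM9), was at 305 in the knockout and 681 in the control (-1.16). Its other sequence was at 309.7 in the knockout and 479 in the control (-0.63), so both were lower. Atp5l, another subunit of the dimer, was at 890.4 in the knockout and 1212 in the control (-0.44), but its 2 dimmer sequences differed by 0.07 and -0.09. Atp5j2 was at 1415 in the knockout and 1003 in the control (0.50). A search of RefSeq for symbols made of a subunit gene name and -ps found pseudogenes of Atp5k (4), Uqcrh (2) and Atp5l (2). It found 1 each of Atp5c1, Atp5f1, Cox5b and Cox7c. Whether the probes of these genes also take up signal from such copies was not tested. Of the copies, Uqcrh-ps1 and Atp5pb-ps, a copy of Atp5f1, had a sequence of their own. Uqcrh-ps1 was at 32.2 in the knockout and 22.6 in the control, below the random-sequence level on both arrays. Copies under other names, and any of Cyc1 or Cycs, were not searched, so other members may have copies too.

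The genes that only share a name with a subunit did not stand apart. Atp5sl was at 346 in the knockout and 463 in the control (-0.42) and Atp5s at 220.2 in the knockout and 237 in the control (-0.11). Cox4nb did not reach the detected range, with 135 in the knockout and 121 in the control, and its dimmer sequence at 53.1 in the knockout and 125 in the control.

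**Figure D2:**
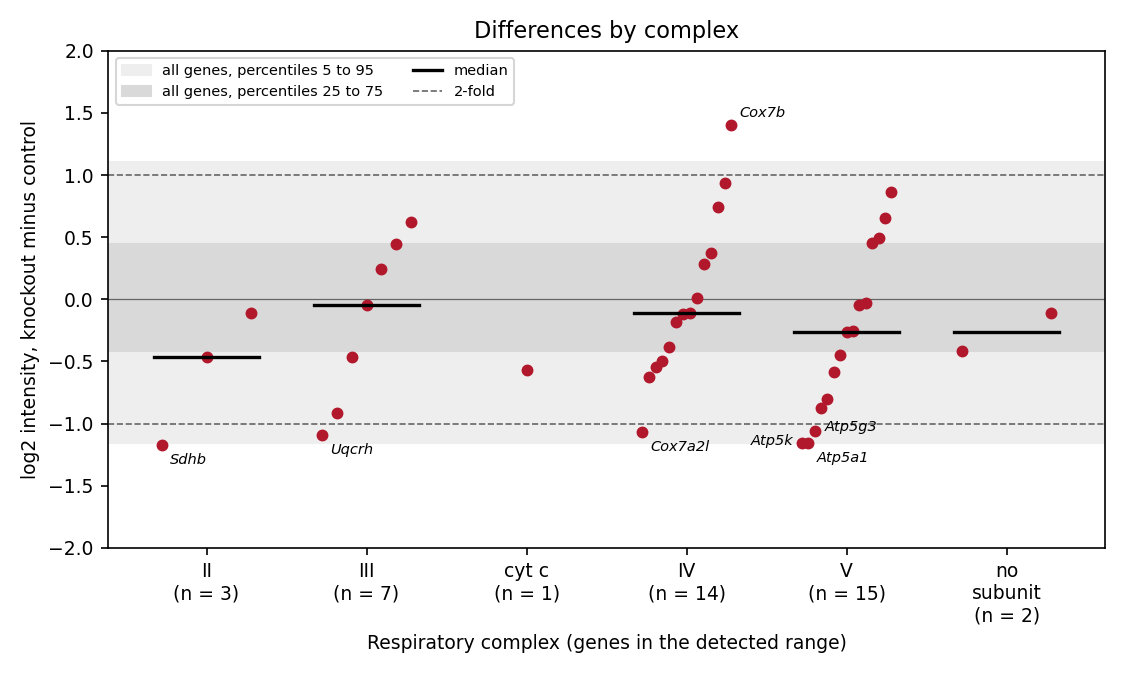
log2 difference in intensity, knockout minus control (y axis), of each gene in the detected range, by complex (x axis); bars are medians, shaded bands the spread of all genes, and dashed lines 2-fold. The medians run from -0.46 (complex II) and -0.26 (complex V) to -0.11 (complex IV) and -0.05 (complex III), and most points lie within percentiles 5 to 95 of all genes (-1.16 to 1.10).

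The 3 genes of the c subunit, Atp5g1, Atp5g2 and Atp5g3, differed in direction. They encode the same mature protein, which forms the turning ring in the membrane, and differ in the import sequence that is cut off. Atp5g3 was at 436 in the knockout and 910.0 in the control (-1.06; chromosome 2, 73746568 to 73749119, MM9). Atp5g1 was at 368 in the knockout and 553 in the control (-0.59) and its other sequence at 285 in the knockout and 419 in the control (-0.56). Atp5g2 was higher with both sequences, at 889 in the knockout and 489 in the control (0.86) and at 630.3 in the knockout and 473 in the control (0.42). Of the genes for this protein, 2 were therefore lower and 1 was higher, and intensities of different probes do not add up to its total. The promoters of the 3 genes are shown because they drive the same protein from separate loci. They are from RefSeq (GRCm38.p6), from 170 bases before the start to 30 bases after it, with the motifs searched in capitals.
Atp5g1, chr11:96075602-96075801, minus strand: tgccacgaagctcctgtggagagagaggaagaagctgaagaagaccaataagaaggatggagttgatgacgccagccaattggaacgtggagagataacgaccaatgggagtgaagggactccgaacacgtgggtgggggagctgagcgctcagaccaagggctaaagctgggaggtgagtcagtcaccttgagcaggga
Atp5g2, chr15:102671018-102671217, minus strand: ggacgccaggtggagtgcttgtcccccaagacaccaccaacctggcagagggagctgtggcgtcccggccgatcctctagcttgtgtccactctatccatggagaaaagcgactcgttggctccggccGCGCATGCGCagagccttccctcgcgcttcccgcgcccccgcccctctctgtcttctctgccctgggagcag
Atp5g3, chr2:73911297-73911496, minus strand: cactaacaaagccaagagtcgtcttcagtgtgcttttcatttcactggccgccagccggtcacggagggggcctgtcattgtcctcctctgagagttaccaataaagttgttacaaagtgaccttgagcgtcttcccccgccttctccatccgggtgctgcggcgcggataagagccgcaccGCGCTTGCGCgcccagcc

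The capitals mark GCGCA followed by any base and GCGC, the core of the site of nuclear respiratory factor 1 (NRF1), CCGGAAG, a site of ETS factors such as Gabpa, and AAGATGG, a site of Yy1, all searched on both strands. These are factors known to act on nuclear respiratory genes. In these windows Atp5g2 and Atp5g3 each hold 1 NRF1 match and Atp5g1 none. Whether these letters bear on the differences was not tested. Promoters of the same layout follow for the genes past 2-fold that had other sequences in the same direction and lay above background on both arrays: Atp5k with an NRF1 and an ETS match, Uqcrh with an ETS match, and Cox7b with none.
Atp5k, chr5:108434370-108434569, minus strand: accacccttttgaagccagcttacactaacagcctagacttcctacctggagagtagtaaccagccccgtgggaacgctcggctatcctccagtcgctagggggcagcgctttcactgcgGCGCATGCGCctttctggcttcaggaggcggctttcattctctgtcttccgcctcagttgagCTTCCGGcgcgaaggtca
Uqcrh, chr4:116075041-116075240, minus strand: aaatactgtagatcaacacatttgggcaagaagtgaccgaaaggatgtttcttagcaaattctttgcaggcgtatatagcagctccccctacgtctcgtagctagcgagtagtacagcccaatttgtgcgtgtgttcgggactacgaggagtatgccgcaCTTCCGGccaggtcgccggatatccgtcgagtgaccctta
Cox7b, chrX:106015530-106015729, plus strand: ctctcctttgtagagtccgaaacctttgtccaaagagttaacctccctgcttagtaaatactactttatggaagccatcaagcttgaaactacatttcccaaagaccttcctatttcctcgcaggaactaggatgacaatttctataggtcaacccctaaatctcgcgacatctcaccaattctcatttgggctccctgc

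Promoter sequences were found for 37 of the 49 genes, as 41 windows of 300 bases. The NRF1 letters were in 10 windows (24.4%, against 4.60% of 32851 RefSeq promoters), the ETS letters in 12 (29.3%, against 8.86%) and the Yy1 letters in 6 (14.6%, against 6.34%). TATAAA, the core promoter box, was in 3 (7.32%, against 13.6%). Of the 22 lower genes with a promoter, 6 held the NRF1 letters and 8 the ETS letters, and of the 10 higher genes 3 held each. A match is no evidence of binding, and the part of the motifs in the differences was not tested.

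Separate sequences of a gene gave the only check within the arrays. Of the 49 genes, 21 had several sequences and 28 had 1. There were 19 with several whose brightest was in the detected range. All sequences were lower in 6 of the 19 (Atp5g1, Atp5h, Atp5k, Cycs, Sdhb, Uqcrh), beside 1551 of 8336 such genes on the array (18.6%). All were higher in 6 of the 19 (Atp5c1, Atp5g2, Cox7b, Cox7c, Cyc1, Uqcr), beside 1623 of 8336 (19.5%). The number of sequences per gene, on which such agreement depends, was not matched. In the other 7 the sequences differed in sign. Most of the 8336 such genes on the array were likewise neither all lower nor all higher. No gene was at least 2-fold lower with every sequence, beside 0.684% of all such genes, and none at least 2-fold higher, beside 0.432%. Further sequences, 15 of them detected, centred on 0.07, with 6 lower and 9 higher, beside -0.05 for the brightest sequences of the same 15 genes. Over these 15 genes neither kind of sequence showed the lower median of the whole set. By number of sequences, the median was -0.26 over 23 detected genes with 1 sequence and -0.11 over the 19 with several. The spread between detected sequences of 1 gene was 0.34 (SD, log2, 15 genes) in this set and 0.66 over 4969 genes of the array, which covers probe noise and transcript forms but not animals.

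**Figure D3:**
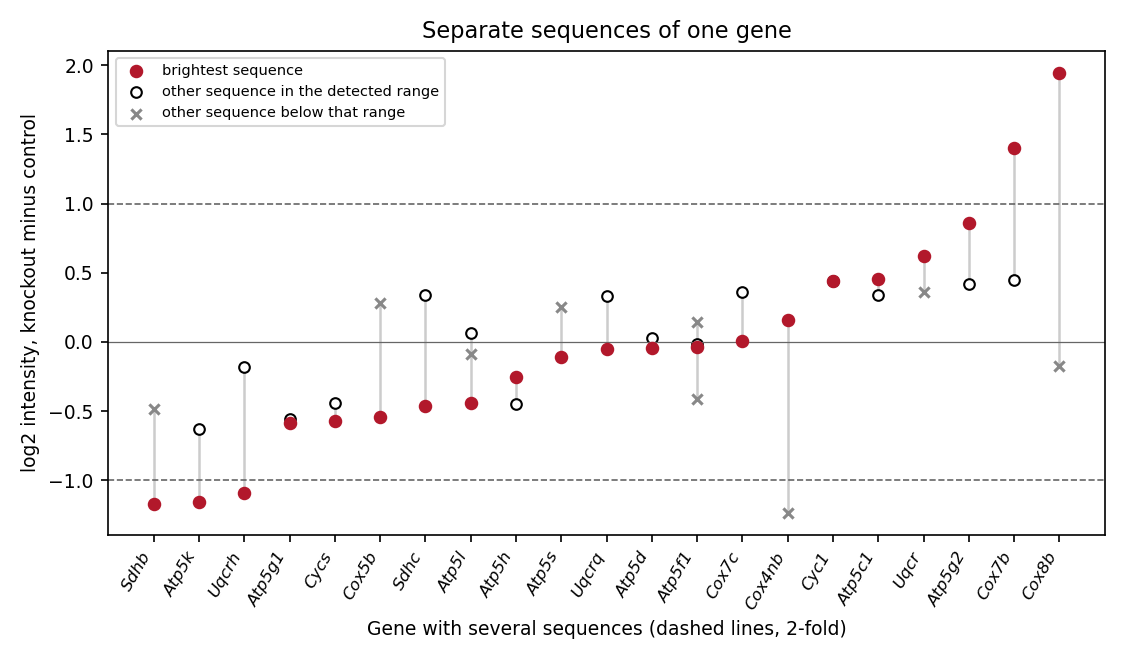
log2 difference, knockout minus control (y axis), of every sequence of the 21 genes with several sequences (x axis), ordered by the brightest sequence (filled); open circles are other sequences in the detected range, crosses those below it, and dashed lines 2-fold. Atp5g1, Cycs and Cyc1 have sequences close together. Cox8b and Cox4nb spread most widely, followed by Cox7b, Uqcrh, Cox5b and Sdhc.

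Other genes of the pathway were described from lists of assembly factors, regulators and tricarboxylic acid (TCA) cycle enzymes. The 22 detected assembly factors comprised 14 lower (63.6%, beside 48.3% of all genes) and 8 higher ones and centred on -0.27. At least 2-fold lower were 5 of them (22.7%, beside 7.29% of all genes) and at least 2-fold higher 1 (4.55%, beside 6.41%). Of the 22, 4 were in the detected range only through the control, 3 of which are among those 5, and over all 33 measured factors 20 lay lower and 13 higher (median -0.16). Lrpprc, which stabilises the mitochondrial messages for complex IV subunits, was at 105 in the knockout and 344 in the control (-1.71). It was in the detected range only through the control. Coa5, a factor of complex IV assembly, was at 178 in the knockout and 515 in the control (-1.54). The exception on the high side was Atpif1, the inhibitor of ATP hydrolysis by complex V that is also needed for haem synthesis in red cell precursors of zebrafish and mouse, at 7562 in the knockout and 2915 in the control (1.38). Each of these 3 had 1 sequence.

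Regulators had a median of -0.06 over 7 detected genes, 5 lower (71.4%, beside 48.3% of all genes) and 2 higher, none at 2-fold. Over all 11 measured, without the filter, 6 lay lower and 5 higher (median -0.0047). Gabpa was at 1284 in the knockout and 2043 in the control (-0.67), Nrf1 at 945 in the knockout and 642 in the control (0.56), and Polrmt, the mitochondrial RNA polymerase, at 139 in the knockout and 185 in the control (-0.42). TCA enzymes had a median of -0.20 over 9 detected genes, 6 lower (66.7%, beside 48.3% of all genes) and 3 higher. Of these, 1 (Suclg1) was in the detected range only through the control and 1 (Suclg2) only through the knockout. Over all 12 measured, without the filter, 6 lay lower and 6 higher (median -0.093), so the lower share depended on the filter. Suclg1, at 68.9 in the knockout, was below the random-sequence level there, against 160 in the control. Suclg2 differed by 0.80, and the citrate synthase gene (Cs) by 0.67 (1177 in the knockout and 741 in the control). The RNA of Cs lay opposite to the median of the respiratory genes, and mitochondrial content was not measured.

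Set side by side, the 37 detected Nduf genes of complex I centred on -0.25 with 25 lower (67.6%). The 63 detected mitochondrial ribosomal protein genes centred on -0.07 with 35 lower (55.6%). The 73 detected cytosolic ribosomal protein genes centred on -0.28 with 54 lower (74.0%). Among all genes 48.3% were lower. Erythroid and granulocyte markers differed far more between the same samples. Of 17 detected erythroid markers 16 were higher in the knockout (94.1%, beside 51.7% of all genes), with a median of 1.76. Of the 17, 2 were in the detected range only through the knockout. Over all 18 measured, without the filter, 17 lay higher (median 1.68). The summed intensity of the 18 measured was 92340 in the knockout and 18891 in the control. Such sums mix probes of unequal brightness, and Hbb-b1 and Hba-a2 alone made up 75.8% of the knockout sum and 59.6% of the control sum. Hbb-b1, Hba-a1 and Car2 led them (2.92, 2.41 and 2.32). Of 18 detected granulocyte and monocyte markers 14 were lower (77.8%, beside 48.3% of all genes), with a median of -0.89. Over all 21 measured, without the filter, 17 lay lower (median -0.87). The summed intensity of the 21 measured was 61134 in the knockout and 151765 in the control. S100a8 and S100a9 made up 48.6% of the knockout sum and 53.7% of the control sum. Fcnb (-1.77), Chil3 (-1.76) and Lcn2 (-1.65) had the lowest differences, Fcnb being in the detected range only through the control. Csf1r (1.19), Itgam (0.77), Ly6c2 (0.62) and Cebpe (0.03) were higher in the knockout, Itgam being in that range only through the knockout. Csf1r, Itgam, Ly6c2 and Cebpe are named after their values were seen. No marker of either list was below the random-sequence level on both arrays. Their part in the differences of the respiratory genes was not tested.

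**Figure D4:**
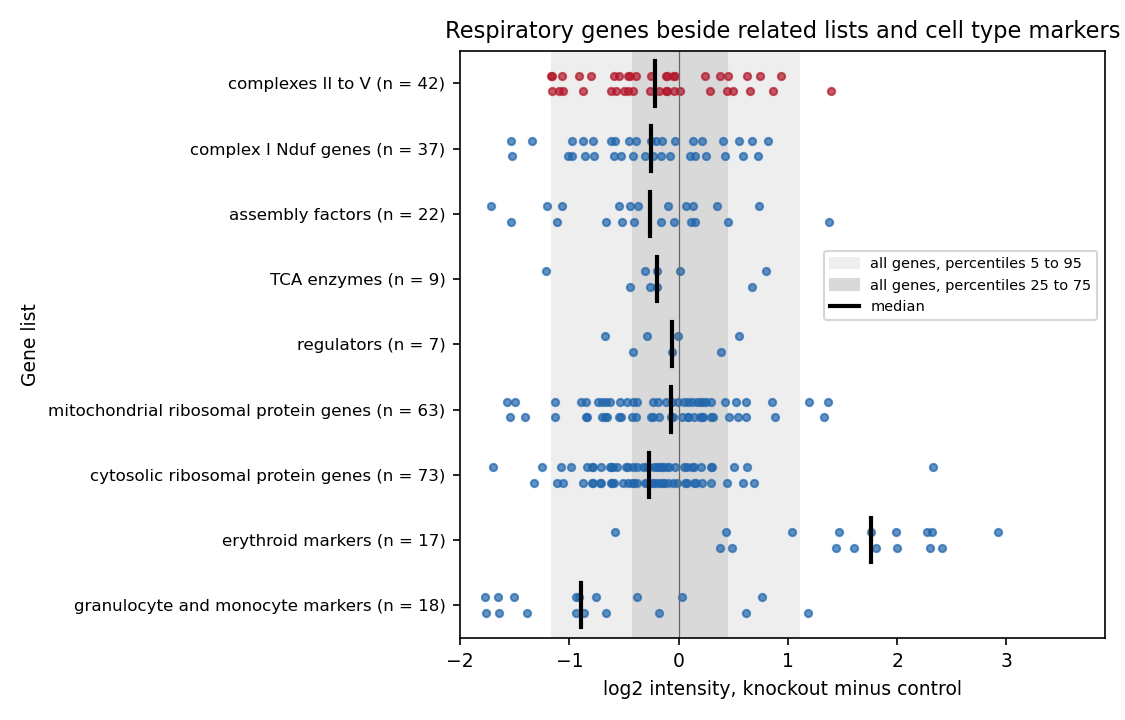
log2 difference, knockout minus control (x axis), of the genes in the detected range of each list (y axis), with the list median as a bar and the spread of all genes shaded. The median of complexes II to V (-0.22) lies near those of complex I (-0.25) and of the cytosolic ribosomal protein genes (-0.28), whereas erythroid markers (1.76) and granulocyte and monocyte markers (-0.89) lie apart on either side.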

How the data were processed

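The intensities used are those the authors deposited, untransformed, a value for each sequence and array. RMA is the tool the submitters' processing notes name, with no version. Going by the deposited probe columns, 44155 of 44170 sequences were summarised from 3 probes, with coordinates on MM9. The deposited series table held 34219 of them, 68 of the 73 respiratory sequences, and differed by at most 0.0412 units. RMA aligns the arrays, so a shift of most genes would not be seen.

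Intensities were turned into log2 values (Python 3.11.15, pandas 2.3.3). Symbols were updated through RefSeq gene identifiers. A run on simulated data, with a single sequence per gene, checked only that planted differences came back as group medians. It did not exercise the choice of sequence, the filter, the bounds or the normalization. Genes and lists were chosen with earlier results of these data known. The 2-fold size and the median filter stand in for a test, since each genotype had 1 array, which limits the precision. All members could be named; given in full were those past 2-fold, the extremes of each complex, those with several sequences, tissue isoforms and the c subunit genes, and in other lists up to 3 by size, besides 3 sort markers, 4 granulocyte and monocyte markers that were higher and the brightest markers of the sums. The comparison lists of complex I and ribosomal proteins were added after the data were seen. A value below the random-sequence level on 1 array was replaced by that level to give a bound. Alternatives are given in the closing section.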

Additional observations from a re-analysis of the deposited data

How the results depend on the processing

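No paired analysis was possible because the design holds a single array of either kind. The median over the respiratory genes stayed below 0 in every setting, between -0.26 and -0.12. Beside -0.22 as reported, it was -0.15 with the series table, -0.16 with quantile normalization, -0.12 when all sequences of a gene were averaged and -0.15 with the dimmest sequence. The complex II median (-0.46) was -0.088 with averaged sequences, -0.29 with no filter on dim genes and -0.11 with the 75th percentile filter, and turned to 0.11 with the dimmest sequence. That of complex III (-0.05) turned to 0.14 with averaged and 0.030 with the dimmest sequence, and was -0.26 with no filter, -0.47 with the 75th percentile filter and -0.20 with 3 subunit genes that the files list under other names (Uqcr10, Atp5md and Atp5mpl, added after seeing the data). That of complex V (-0.26) was -0.45 with the dimmest sequence. Complex II was also -0.29 with the series table, and complex IV (-0.11) was -0.049 with the 75th percentile filter and -0.053 with quantile normalization. The cause was not tested. Against 6 genes at least 2-fold lower and 1 higher, there were 3 and 0 with averaged sequences or with the dimmest sequence, 2 lower with an offset before the log, 2 higher with no filter, 11 and 6 at 1.5-fold, and 0 and 0 at 3-fold; larger sizes count fewer genes by construction. Cox8b turned to -0.18 with its dimmest sequence. Counts of lower and higher genes stayed within 1.5 times of 29 and 13 in all settings. Median centring, loess (span 0.3) and leaving out the 3 genes that encode no subunit kept every median's sign and these counts within that margin.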

Other observations

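Among related genes outside the naming rule, the complex III subunit gene Uqcr10 was at 188 in the knockout and 240.0 in the control (-0.36), and the complex V subunit genes Atp5md and Atp5mpl differed by 0.16 and -0.70. Cyct, the cytochrome c of testis, was at 283 in the knockout and 401 in the control (-0.50). The pseudogene Atp5pb-ps had a sequence of its own, at 694 in the knockout and 1219 in the control (-0.81), while Atp5f1, the gene it was copied from, was level (-0.03).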
